A study of Mus musculus with 30 samples.

Results

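Interferon-stimulated genes are the genes that a cell switches on when interferon binds its receptors. Here 38 of them, given as a list of gene symbols, were followed in the gastrocnemius muscle of 30 aged mice. The deposited tables had a row for each of the 38 symbols. Of these, 35 had a mean over 20 reads and 34 also had a mean over 0.5 FPKM (a read level scaled to exon length and to library size), and these 34 members were tested among the 12030 genes that passed the same limits, out of 57186 rows. Male wild-type C57BL/6J mice, 14 weeks old at the start, were kept singly with a running wheel for 64 weeks. The LD group (14 mice) stayed on a fixed light-dark cycle with 12 h of light per day, and the ADV group (16 mice) had the same cycle advanced by 8 h every 4 days, the chronic jet lag paradigm. All mice of both groups had first spent 2 weeks in constant darkness. Each mouse gave 1 poly(A)-enriched, stranded library, and mice are named here by group and label number. The comparison of ADV with LD asks whether the schedule moved these genes. The spread within each group shows how they varied among mice on the same schedule. The paper states that tissue was taken over many hours of the day, so that spread also holds differences in sampling time.

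Type I interferons signal through IFNAR1 and IFNAR2 to a complex that holds STAT2 and IRF9 and binds the interferon-stimulated response element (ISRE) in promoters. Interferon gamma signals through IFNGR1 and IFNGR2 to the gamma-activated site (GAS), and IRF1 induced in this way acts on further promoters. The products include sensors of viral RNA, proteins that block translation, the ubiquitin-like modifier ISG15, and 2 families of large GTPases that act on the vacuoles of intracellular pathogens. Many of these genes have a low resting level in muscle, which is made of fibers together with endothelial cells, fibroblasts and resident macrophages.

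Promoter stretches of 8 members are printed here to show the short ISRE motif that several genes described below have before their start. The sequences come from RefSeq on build GRCm38.p6, whereas the deposited tables use GRCm39, so their coordinates are not those of the tables. Of the 38 symbols, 30 had a promoter entry of 300 bases, reaching from 250 bases before the start to 50 bases after it. The ISRE core, searched as GAAANNGAAA on both strands (TTTCNNTTTC on the other), was found in 16 of these 30 (53.3%), against 3.99% of all 27025 symbols in the table. A GAS pattern, TTCNNNGAA, which reads the same on both strands, was found in 10 of the 30 (33.3%), against 9.55% of all symbols. The 2 patterns can share bases, as they did in the promoter of Bst2. Capitals mark the ISRE core matches, the stretches end before the start site, and each is written 5′ to 3′ on the strand of the gene.
Isg15 (chr4:156200850-156200921, minus strand): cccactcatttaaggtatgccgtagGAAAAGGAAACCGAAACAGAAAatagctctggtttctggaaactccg
Ifit1 (chr19:34640760-34640838, plus strand): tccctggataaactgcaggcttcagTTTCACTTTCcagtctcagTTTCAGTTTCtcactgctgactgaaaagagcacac
Ifit3 (chr19:34583348-34583441, plus strand): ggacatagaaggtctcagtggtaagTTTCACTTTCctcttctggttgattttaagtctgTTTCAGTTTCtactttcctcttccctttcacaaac
Gbp2 (chr3:142620579-142620638, plus strand): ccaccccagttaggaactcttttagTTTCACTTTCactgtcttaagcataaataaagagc
Gbp7 (chr3:142530258-142530317, plus strand): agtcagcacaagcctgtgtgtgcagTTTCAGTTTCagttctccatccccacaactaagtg
Igtp (chr11:58199497-58199555, plus strand): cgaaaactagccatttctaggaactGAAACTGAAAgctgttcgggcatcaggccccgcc
Irgm1 (chr11:48871421-48871475, minus strand): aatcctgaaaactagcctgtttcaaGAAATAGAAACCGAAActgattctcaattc
Trim30a (chr7:104465195-104465254, minus strand): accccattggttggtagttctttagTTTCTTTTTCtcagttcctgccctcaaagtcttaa

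The stretch of Isg15 holds 3 overlapping matches, those of Ifit1, Ifit3 and Irgm1 hold 2 each, and those of Gbp2, Gbp7, Igtp and Trim30a hold 1. The 2 matches of Irgm1 overlap and those of Ifit1 and Ifit3 do not. Isg15, Ifit1 and Gbp2 are shown by rule, and the other stretches were added after their values were seen. The promoter entries of Igtp and Gbp7 also held a GAS match. Those of Eif2ak2 and Ifih1 had their ISRE core match after the start site, at bases 18 to 27 and 32 to 41. A match is a run of letters and not evidence that a factor is bound there.

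The exon counts of a library summed to between 19015401 and 28512674 for LD and to between 18875468.5 and 25699603.5 for ADV. At this depth the 38 genes had means of 12.7 to 744 reads per mouse, so that the value of Isg15, with a mean of 23.7 reads, carries a large counting error. No pair of libraries within a group was as close as sampling noise would leave it, with a smallest chi-square per degree of freedom of 10.6. ADV 34 and LD 33 stood apart over all genes. ADV 34 was the highest of its group for 19.5% of all genes and the lowest for 17.8%, and LD 33 for 15.4% and 13.1%. Without either of these mice the same 3 members were called as with all mice. The labelled tissue was borne out by its markers, with the 14 genes of muscle fibers summing to 75030 FPKM or more in every mouse.

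Most of the members were slightly lower in the ADV mice, and few of these differences passed the test. With edgeR's quasi-likelihood test and a false discovery rate (FDR) under 0.05 over all genes tested, 3 of 34 members were called, all lower in the ADV group. These were Eif2ak2, Ifih1 and Trim30a. Over all 12030 genes 10.8% were called, 5.2% as lower, so the share of members called was near that of genes in general. In bulk tissue, fewer cells of a type and less RNA per cell cannot be told apart. The log2 fold change of ADV over LD was negative in 27 of 34 members, against 49.2% of all genes. Its median was -0.12 over the members and 0.00285 over all genes. The members vary together from mouse to mouse, so the count of negative values is not one of independent genes. Without LD 31 it was 23 of 34. When a fold change over 1.3 was also asked for, Eif2ak2 alone of the members was called, against 2.09% of all genes. With only library size as the scale, 25 of 34 members had a negative value. The clock genes differ between the groups as well. A score of their expression ran from -2.005 to 0.709 in the LD mice and from -0.676 to 1.302 in the ADV mice. As the score largely follows the group, a fit with it as a covariate cannot tell the schedule from the clock genes. In that fit 0 of 34 members and 0 of 12030 genes had an FDR under 0.05 in edgeR's test. There 3 members and 1359 genes had an unadjusted p under 0.05.

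**Figure D1:**
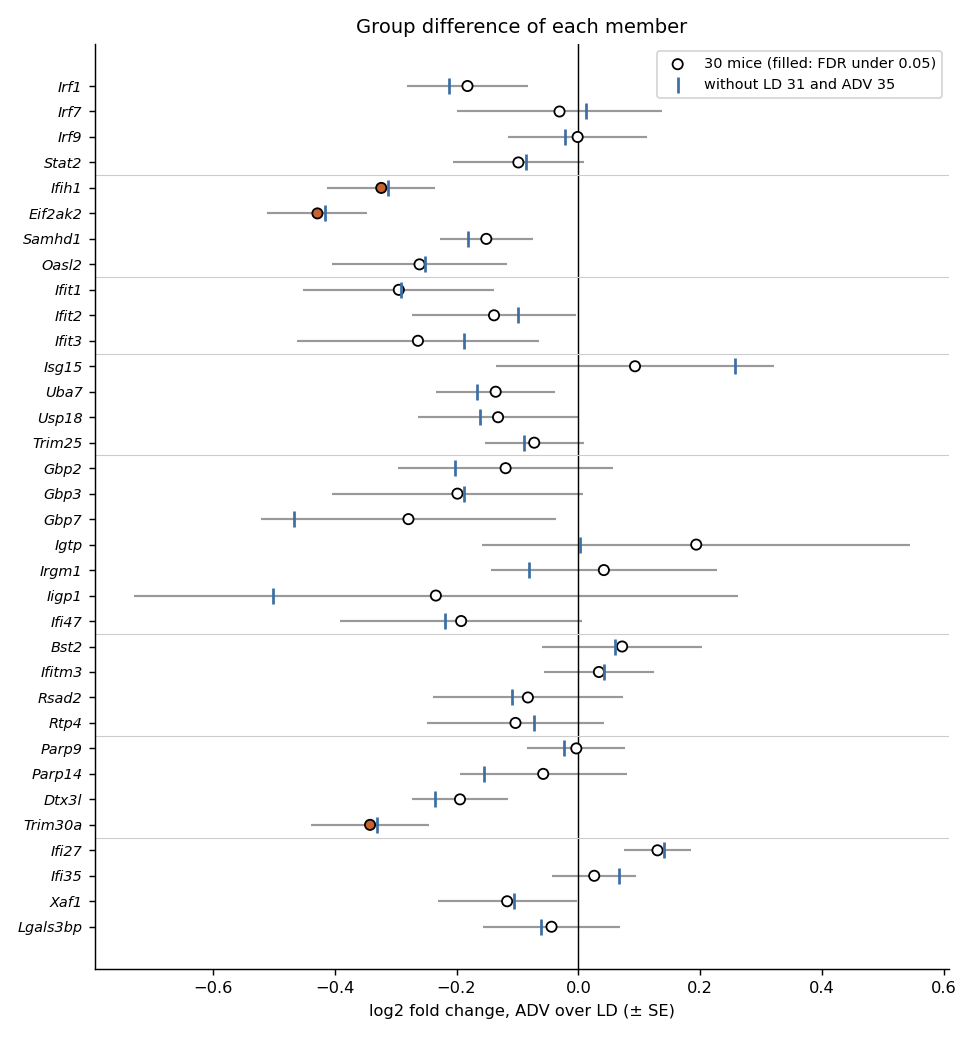
Log2 fold change of ADV over LD for the 34 members tested (x axis), with bars of 1 standard error from edgeR; members are grouped by role, filled circles had an FDR under 0.05 and blue ticks give the value without LD 31 and ADV 35. Of the 34 circles 27 lie below 0, and the 3 filled ones are Ifih1, Eif2ak2 and Trim30a; the widest bars are those of Iigp1 and Igtp.

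The RNA sensors held the largest of the called differences. Eif2ak2 encodes PKR, a kinase that is activated by double-stranded RNA and halts translation. Its level in the LD group was lowest at 1.18, had a median of 1.57 and was highest at 1.90 FPKM, and in the ADV group the lowest, median and highest were 0.724, 1.125 and 1.54 FPKM. The groups overlapped, yet all 16 ADV mice lay below the LD median. The log2 fold change was -0.43 (standard error, SE, 0.08, FDR 0.00225 in edgeR). This was the one member that kept an FDR under 0.05 under every alternative tried except the clock score, where its log2 fold change was -0.34 with an FDR of 0.32.

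Ifih1 encodes MDA5, a sensor of long double-stranded RNA. It ranged from 0.665 to 1.24 FPKM under LD (median 1.09) and from 0.510 to 1.09 FPKM under ADV (median 0.855). All 16 ADV mice again lay below the LD median, and the log2 fold change was -0.32 (SE 0.09, FDR 0.0202 in edgeR). Trim30a, a TRIM protein known as a brake on NF-kappa-B signalling, ranged from 0.640 to 1.21 FPKM under LD (median 0.976) and from 0.516 to 1.09 FPKM under ADV (median 0.792). Of the ADV mice, 15 of 16 lay below the LD median, and the log2 fold change was -0.34 (SE 0.10, FDR 0.0243 in edgeR). The call of Ifih1 and that of Trim30a were lost after correction for the GC content trend per library (FDR 0.0736 and 0.103), while Eif2ak2 had an FDR of 0.00573 in the same edgeR fit. The median GC content was 47.5% over the transcripts of the members and 50.4% over those of all genes tested.

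The other members of these roles had smaller values. Oasl2, a relative of the oligoadenylate synthetases that binds RNA, had a log2 fold change of -0.26 (FDR 0.218 in edgeR). Samhd1, which degrades the nucleotides that viruses need to copy DNA, was the third most abundant member. It had a lowest, median and highest level of 6.86, 7.77 and 10.8 FPKM under LD and of 6.03, 7.29 and 11.9 FPKM under ADV, with a log2 fold change of -0.15 (SE 0.08, FDR 0.182 in edgeR). Its highest ADV mouse was ADV 35, and without that mouse the log2 fold change was -0.21 with an FDR of 0.0297 in the same test. Dtx3l, a ubiquitin ligase, and Parp9, its ADP-ribosylating partner, lie side by side on chromosome 16 on opposite strands, with 8.6% of the exon bases of Dtx3l shared with Parp9. Dtx3l had a log2 fold change of -0.19 (FDR 0.0960 in edgeR) and Parp9 one of -0.00334 (FDR 0.984).

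The transcription factors of the pathway gave no call. Irf7, the interferon-induced factor that amplifies the type I response, had the same median of 1.69 FPKM in both groups, from 0.971 to 3.11 FPKM under LD and from 0.852 to 3.18 FPKM under ADV. Its log2 fold change was -0.03 (SE 0.17, FDR 0.922 in edgeR), and the groups overlapped along nearly their whole range. Irf9, the DNA-binding part of the type I complex, had a median of 2.68 FPKM under LD (1.74 to 3.67) and 2.67 FPKM under ADV (1.69 to 4.28), with a log2 fold change of -0.00114 (SE 0.11, FDR 0.996 in edgeR). Stat2, its partner, had a median of 1.92 FPKM under LD (1.14 to 2.77) and 1.90 FPKM under ADV (1.299 to 2.39), with a log2 fold change of -0.10 (SE 0.11, FDR 0.568 in edgeR). Irf1, which also answers to interferon gamma, had a median of 4.23 FPKM under LD (3.60 to 6.71) and 3.88 FPKM under ADV (2.88 to 6.80), with a log2 fold change of -0.18 (SE 0.10, FDR 0.212 in edgeR). For Irf7 and Irf9 the sign changed between settings.

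The IFIT genes, neighbours on chromosome 19 whose products bind foreign RNA and hinder its translation, had negative values that did not pass the test. Ifit1 had a median of 0.963 FPKM under LD (0.586 to 1.51) and 0.857 FPKM under ADV (0.373 to 1.25), with a log2 fold change of -0.29 (SE 0.16, FDR 0.202 in edgeR). Ifit2 had a median of 1.01 FPKM (0.801 to 1.71) and 0.990 FPKM (0.349 to 1.25), with a log2 fold change of -0.14 (SE 0.13, FDR 0.510 in edgeR). Ifit3 had a median of 1.46 FPKM (1.083 to 4.53) and 1.60 FPKM (0.674 to 2.95), with a log2 fold change of -0.26 (SE 0.20, FDR 0.378 in edgeR). The fold change of Ifit3 was negative although its median was higher in the ADV group. Its highest LD mouse was LD 31 at 4.53 FPKM, and the other LD mice reached at most 2.38 FPKM.

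In the ISG15 pathway, Isg15 itself had a median of 1.33 FPKM under LD (0.422 to 3.58) and 1.32 FPKM under ADV (0.380 to 2.46), with a log2 fold change of 0.09 (SE 0.23, FDR 0.815 in edgeR). Uba7, which activates ISG15, had a log2 fold change of -0.14, and Usp18, which removes it and also damps the receptor, one of -0.13. Trim25, a ligase of the pathway, had one of -0.07. Their FDRs in the same test were 0.355, 0.526 and 0.579.

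The 3 members tested with the widest spread between mice, Iigp1, Gbp7 and Igtp, belong to the guanylate-binding proteins (GBP) and the immunity-related GTPases (IRG). Much of that spread came from 1 mouse in each group. Irgm1, Gbp2, Gbp3 and Ifi47 spread less than Isg15, where the highest mouse was at 9.42 times the lowest. All 7 GTPase members were highest in LD 31 among the LD mice and highest in ADV 35 among the ADV mice. Igtp, also called Irgm3, stood at 27.1 FPKM in LD 31, where the other LD mice ranged up to 5.71 FPKM around a median of 5.10 FPKM for the whole group. It stood at 44.7 FPKM in ADV 35, where the other ADV mice ranged up to 6.46 FPKM and the lowest was at 3.26 FPKM. Apart from these 2 mice, the highest was at 1.98 times the lowest, the LD group began at 3.47 FPKM and the groups overlapped. Over all mice the log2 fold change of ADV over LD was 0.19 (SE 0.35, FDR 0.744 in edgeR), without LD 31 it was 0.59, without ADV 35 it was -0.40, and without both mice it was 0.00343.

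Iigp1, an effector IRG that coats vacuoles, varied most of the members tested, with the highest mouse at 48.2 times the lowest, and at 7.82 times without LD 31 and ADV 35. It stood at 21.03 FPKM in LD 31, against at most 4.06 FPKM in the other LD mice, and at 25.0 FPKM in ADV 35, against at most 3.18 FPKM in the other ADV mice. The group medians were 2.11 and 1.53 FPKM, and the log2 fold change was -0.23 (SE 0.50, FDR 0.783 in edgeR). Leaving out ADV 35 took it to -1.14 with an FDR of 0.0406, leaving out LD 31 to 0.41, and leaving out both mice to -0.50 with an FDR of 0.145. Irgm1, a regulatory IRG, had 15.7 FPKM in LD 31, against at most 8.08 FPKM in the other LD mice, and 26.2 FPKM in ADV 35, against at most 8.40 FPKM. Its log2 fold change was 0.04 over all mice (FDR 0.902 in edgeR) and -0.08 without both.

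The 3 GBP members were highest in the same mice, and Gbp7 still spanned 7.39-fold without them. Gbp7 had a lowest, median and highest level of 0.910, 1.57 and 3.18 FPKM under LD and of 0.289, 1.17 and 5.15 FPKM under ADV. ADV 35 stood above the other ADV mice, which reached at most 1.62 FPKM, and ADV 25 was the lowest of them. The log2 fold change of Gbp7 was -0.28 (SE 0.24, FDR 0.452 in edgeR), and -0.57 with an FDR of 0.0365 without ADV 35. Gbp2 had 5.71 FPKM in LD 31, against at most 4.52 FPKM in the other LD mice, and 7.95 FPKM in ADV 35, against at most 3.60 FPKM. Gbp3 had 2.99 and 2.64 FPKM in these mice, against at most 2.40 and 2.08 FPKM in the others of their groups. Ifi47, an IRG of low level, had 1.71 and 1.76 FPKM, against at most 1.29 and 1.01 FPKM. The margins of LD 31 over the next LD mouse were thus wide for Igtp, Iigp1 and Irgm1 and narrow for Gbp2 and Gbp3.

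**Figure D2:**
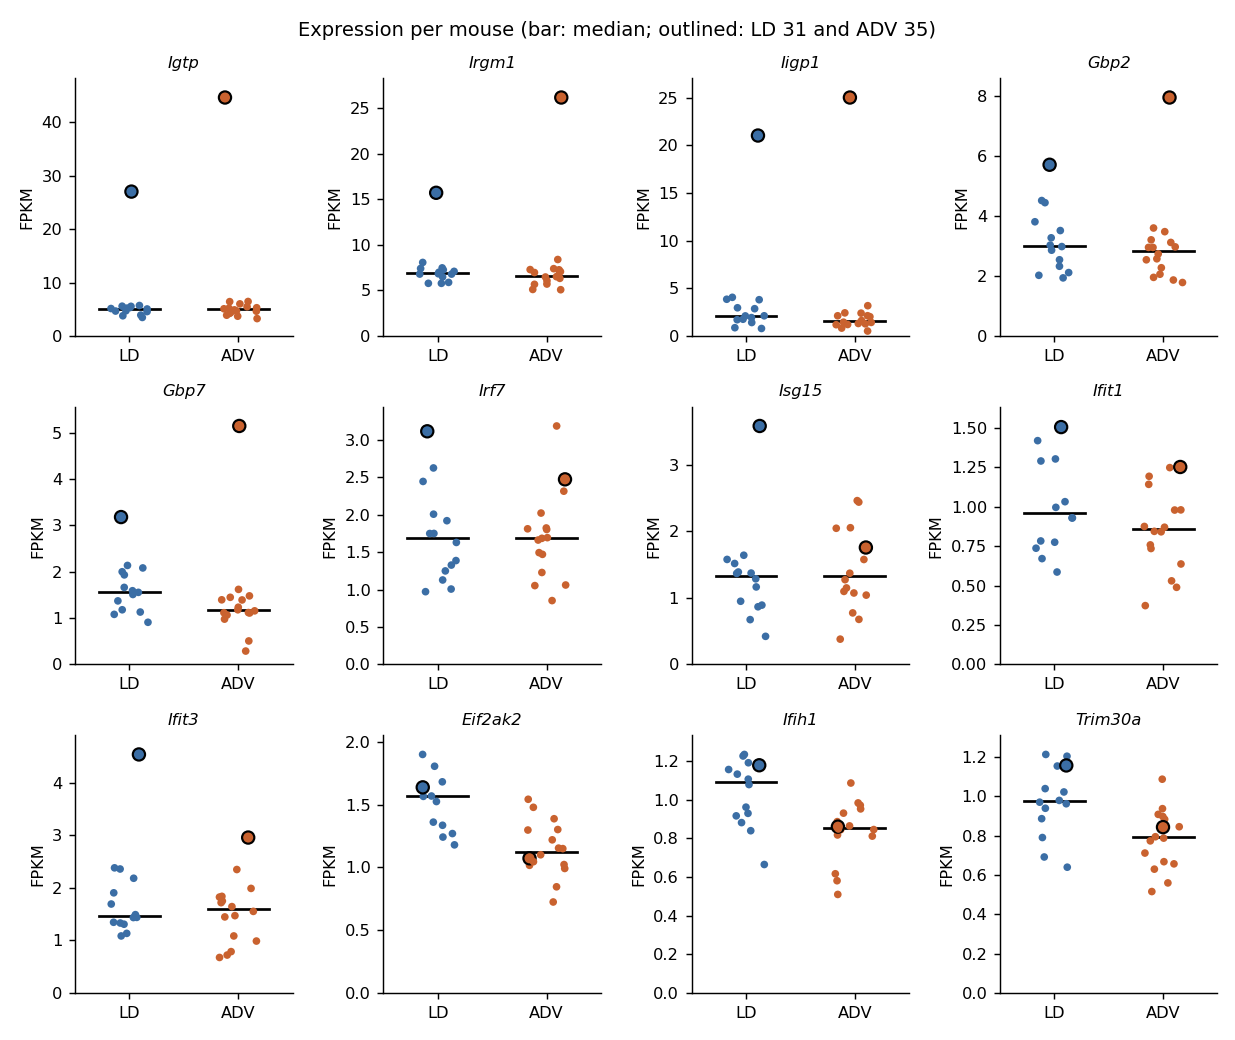
FPKM (y axis, from 0) of 12 members in each of the 14 LD and 16 ADV mice, with 1 point per mouse and a bar at the group median; LD 31 and ADV 35 are outlined. The outlined points stand clear of the other mice in Igtp, Irgm1 and Iigp1, where LD 31 has 27.1, 15.7 and 21.03 FPKM, and lie among them in Eif2ak2, Ifih1 and Trim30a.

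The remaining members stood unevenly high in LD 31 and ADV 35. Over all 34 members LD 31 was the highest LD mouse for 15, against 5.15% of all genes, and lay above the median of the other LD mice for 33. ADV 35 was the highest ADV mouse for 20, against 6.56% of all genes, and lay above the median of the others for 29. These mice were picked out by these values, so the counts describe them and test nothing. On log2 CPM (counts scaled to library size, without length), the median difference of the 7 GTPases from the other mice of the group was 1.18 in LD 31 and 1.95 in ADV 35. The median over the 3 IFIT genes was 0.74 in LD 31 and 0.54 in ADV 35, and that over the 4 transcription factors was 0.51 and 0.62. Isg15 differed by 1.38 in LD 31, where it was the highest of the LD mice at 3.58 FPKM, and by 0.35 in ADV 35, where other mice were higher. Parp14, an ADP-ribosyltransferase, differed by 0.33 in LD 31 and by 1.23 in ADV 35, the latter at 3.73 FPKM against at most 1.94 FPKM in the other ADV mice. The 3 members called between the groups moved little, by 0.06 and -0.03 for Eif2ak2, 0.10 and -0.03 for Ifih1, and 0.22 and 0.05 for Trim30a.

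**Figure D3:**
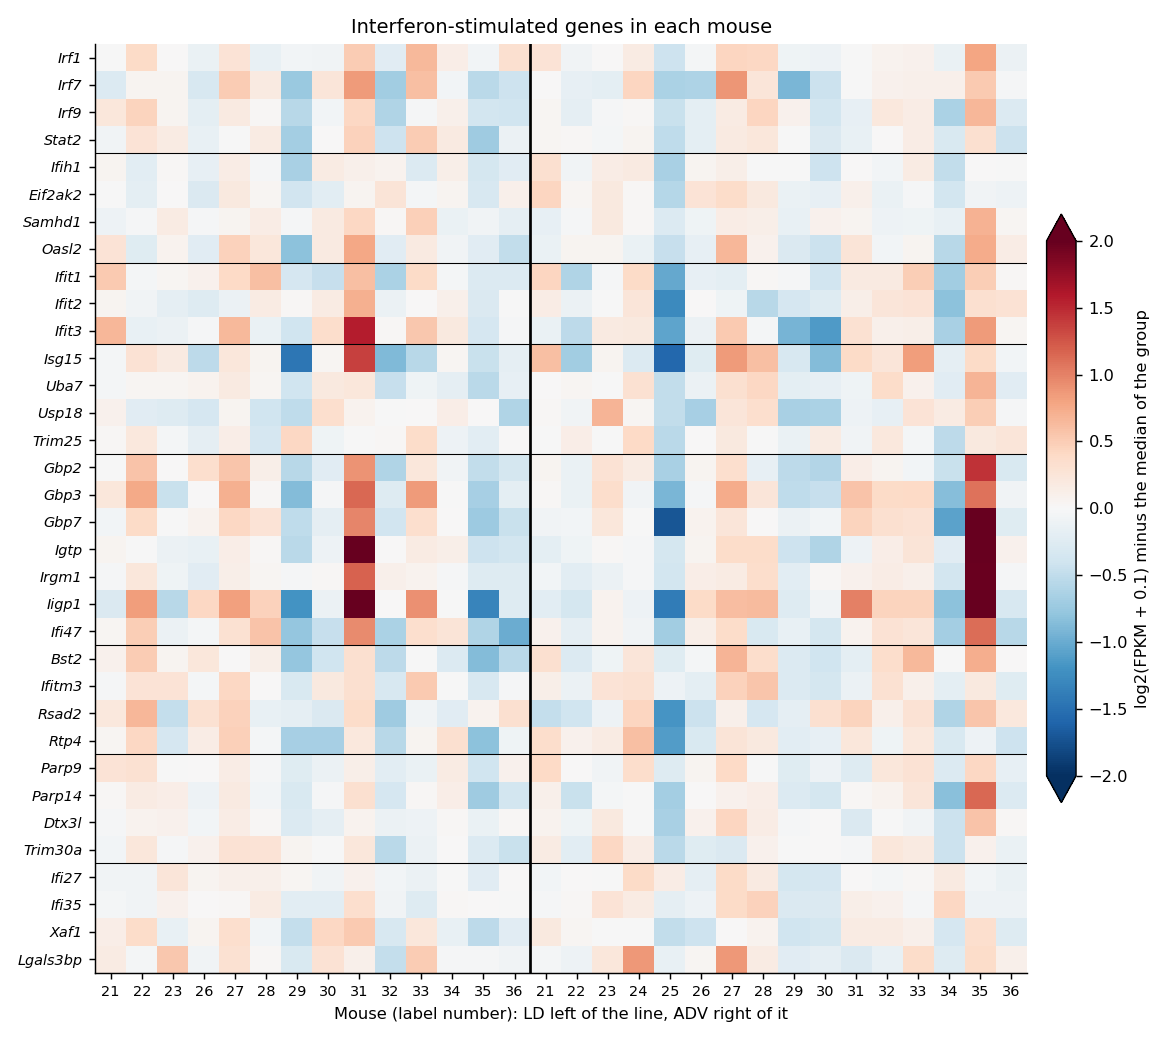
Each cell gives 1 member (row, grouped by role) in 1 mouse (column) as log2(FPKM + 0.1) minus the median of its group, with red above and blue below, and colours end at 2 in either direction. The columns of LD 31 and ADV 35 are red in most rows and darkest in the GTPase rows, and the column of ADV 25 is blue in nearly all.

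Some genes outside the list stood high in the same mice, and they were chosen after their values were seen. Of the 30 genes with the largest difference in LD 31, 26 were not members, and ADV 35 was the highest ADV mouse for 8 of these 26. Of the 30 with the largest difference in ADV 35, 25 were not members, and LD 31 was the highest LD mouse for 8 of these 25. Since the mice were picked by the values of members that vary with such genes, these counts are descriptions. The 2 sets of 30 had 8 genes in common, among them the members Igtp and Iigp1 and the further GTPases Irgm2, Gbp6 and Gbp10. Irgm2, a regulatory IRG that shares 7.1% of the exon bases of Igtp, had 18.8 FPKM in LD 31 (at most 5.83 in the other LD mice) and 35.98 FPKM in ADV 35 (at most 8.27 in the others). Gbp6 had 16.7 and 25.7 FPKM in these mice, against at most 14.16 and 18.03 FPKM.

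The rest of each set differed. That of ADV 35 held Cd274, which encodes the checkpoint ligand PD-L1, and Tap1 and Psmb9, which serve antigen presentation on MHC class I. Tap1 had 4.92 FPKM in ADV 35, against at most 2.00 FPKM in the other ADV mice, and 2.35 FPKM in LD 31, where another LD mouse reached 3.28 FPKM. The set of LD 31 held the members Isg15 and Ifit3. Both sets also held genes of none of the lists used here. Those in the set of LD 31 included Cish, Fkbp5, Mt1, Mt2 and Glul, and those in the set of ADV 35 included Pdk4, Trim63, Depp1 and Chac1. Cish had 18.14 FPKM in LD 31, against at most 12.96 FPKM in the other LD mice, and 0.999 FPKM in ADV 35.

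**Figure D4:**
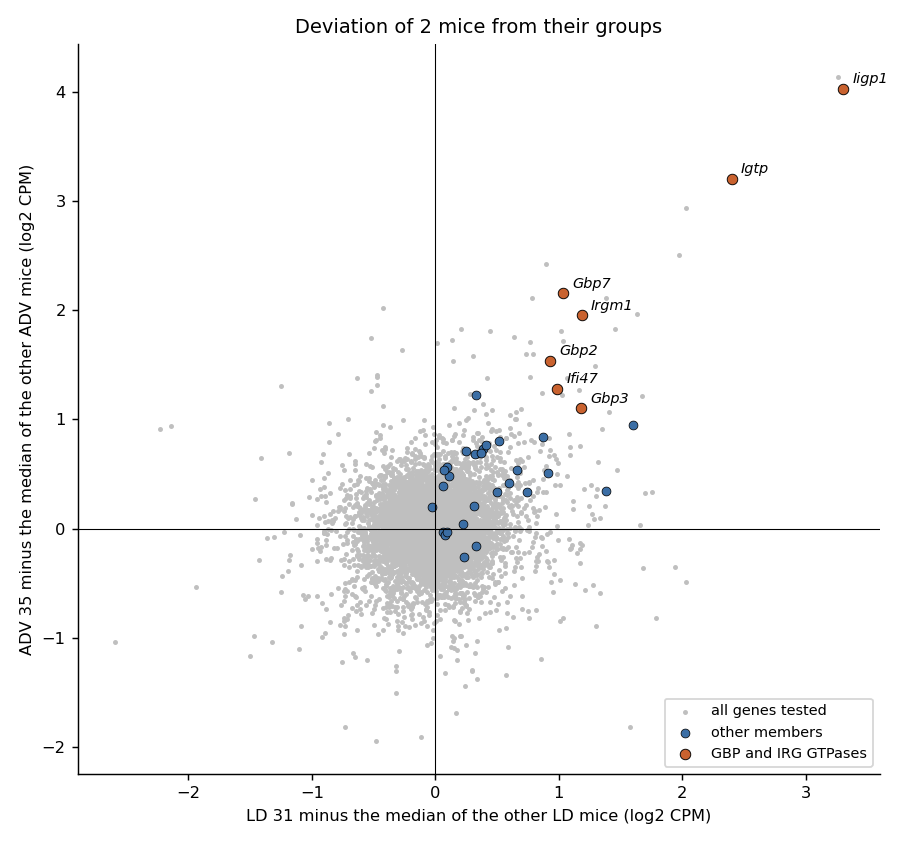
Difference of LD 31 from the median of the other LD mice (x axis) and of ADV 35 from the median of the other ADV mice (y axis), both in log2 CPM, for the 12030 genes tested. The 7 GTPases lie in the upper right, from 0.93 to 3.30 in LD 31 and from 1.10 to 4.03 in ADV 35, and most other members lie closer to 0, with Ifit3 at 1.60 in LD 31 an exception.

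Markers of immune cells were high in both mice in part. The 32 leukocyte markers summed to 298 FPKM in LD 31, where the LD group ranged from 144 to 576 FPKM, and to 290 FPKM in ADV 35, the highest of the ADV group, which began at 141 FPKM. Of these markers 2 were at 0 reads in LD 31 and 0 in ADV 35, and between 1 and 7 in the other mice. For the 9 markers of T and NK cells in that list, a subset split off after their values were seen, the reads summed to 63 in LD 31, against 5 to 39 in the other LD mice, and to 44 in ADV 35, against 7 to 27 in the other ADV mice. Both mice were thus the highest of their groups for the sum, and each was the highest for 5 of the 9 markers. Cd8a had 8 reads in LD 31 (at most 3 in the other LD mice) and 7 in ADV 35 (at most 4 in the others), and Cd3g had 10 and 8 reads (at most 5 and 6). Cd4 had 14 reads in LD 31, where another LD mouse had 18, and 6 in ADV 35, where another ADV mouse had 12, and Gzma had 0 reads in LD 31 and 6 in ADV 35. These are few reads each, with a counting error to match. The 4 markers of B cells summed to 8 reads in LD 31, within the 4 to 24 of the other LD mice, and to 32 in ADV 35, the same as the highest of the others. The part of such cells in the values of the members was not tested.

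At the other end, some mice were low in many members, and the lowest of each group is described here, picked by these values. ADV 25 was the lowest ADV mouse for 18 of 34 members, against 7.37% of all genes, and lay above the group median for 1. LD 29 was the lowest LD mouse for 12 members, against 9.15% of all genes, and lay above the group median for 4. LD 32, LD 35 and ADV 34 were the lowest of their groups for 9, 7 and 6 members. Isg15 was at 0.380 FPKM in ADV 25 and at 0.422 FPKM in LD 29, the lowest value of each group. The median difference of the members from the group median ranged from -0.41 in LD 29 to 0.39 in LD 31, and from -0.49 in ADV 25 to 0.53 in ADV 35, on log2 CPM. The standard deviation of this median difference between mice was 0.247 in the group where it was larger. These values are of single mice, whereas the median difference of -0.12 between the schedules is one of groups, so they are not like measures.

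The most abundant members were the membrane protein Ifitm3, which bars viruses from entering, and Ifi27. Ifitm3 had a lowest, median and highest level of 22.9, 28.8 and 41.3 FPKM under LD and of 23.9, 30.5 and 44.7 FPKM under ADV, with a log2 fold change of 0.03 (SE 0.09, FDR 0.834 in edgeR). Of its exon bases 61.1% are shared with Gm57251 on the other strand, and whether the counting used the strand is not given in the sources used here. Ifi27, a mitochondrial protein, had 19.0, 22.4 and 26.4 FPKM under LD and 19.2, 24.4 and 31.9 FPKM under ADV, with 12 of 16 ADV mice above the LD median. Its log2 fold change of 0.13 (SE 0.06, FDR 0.114 in edgeR) was the second highest of the members after that of Igtp. Bst2 (tetherin, which holds budding virus on the cell), Rsad2 (viperin, an antiviral enzyme) and Rtp4 had log2 fold changes of 0.07, -0.08 and -0.10, with FDRs of 0.746, 0.755 and 0.666 in the same test. Ifi35, Xaf1 and Lgals3bp had 0.03, -0.12 and -0.04, with FDRs of 0.832, 0.513 and 0.824. Shared exon bases also touched Ifi35 (34.4%), Isg15 (31.1%) and Irf1 (21.6%), each with genes on the other strand, and Gbp7 (14%), with Gm43802 on its own strand and Gm66604 on the other.

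The 4 members not tested were at low levels. Dhx58, the RNA helicase LGP2, had a mean of 21.5 reads but only 0.370 FPKM, and Zbp1, Oas1a and Ifi44 had means of 16.4, 15.1 and 12.7 reads. Dhx58, Zbp1 and Oas1a each had their highest level of all 30 mice in LD 31, at 0.846, 1.69 and 0.699 FPKM. Zbp1, a sensor of Z-form nucleic acid, was at 0.035 FPKM in its lowest mouse, LD 29. Ifi44 was highest in ADV 21, at 0.383 FPKM. Without a filter on low values their log2 fold changes were -0.32, -0.73, -0.25 and -0.15, in the order Dhx58, Zbp1, Oas1a and Ifi44, and their FDRs in edgeR's test were 0.433, 0.299, 0.544 and 0.841.

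The members varied together from mouse to mouse on the same schedule. On log2 CPM within the LD group, the median Pearson r over the 561 pairs of members was 0.50, and 94.5% of the pairs had an r above 0. Within the ADV group the median was 0.53, and 94.1% were above 0. Over all pairs of genes tested the medians were -0.0009 and -0.0032. These correlations are given as a description over 14 and 16 mice, which share their schedule but were sampled over many hours of the day. Without LD 31 the median was 0.43, and without ADV 35 it was 0.51.

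The pairs of GTPases were the closest, with a median r of 0.84 in the LD group and 0.85 in the ADV group over 21 pairs. Igtp and Irgm1 had the highest r of all pairs in both groups, 0.95 and 0.96. That value rested on the single high mouse in each, and it was 0.61 without LD 31 and 0.57 without ADV 35. Over all GTPase pairs the median was 0.78 without LD 31 and 0.70 without ADV 35, and Gbp2 with Gbp3 stayed at 0.82 and 0.83. The 3 pairs of IFIT genes had a median of 0.57 in the LD group, which was 0.30 without LD 31, and of 0.66 in the ADV group, which was 0.63 without ADV 35. Some members had a low median r with the others in 1 group or in both. It was -0.01 for Trim25 in the LD group and 0.43 in the ADV group, 0.21 and -0.001 for Ifi27, and 0.33 and 0.05 for Ifi35. In the same order it was 0.213 and 0.402 for Eif2ak2 and 0.225 and 0.407 for Usp18. For Ifi35 it was 0.063 in the LD group without LD 31. The called members Eif2ak2 and Ifih1 went together with an r of 0.61 and 0.81 in the LD and ADV groups, whereas Eif2ak2 and Trim30a had -0.27 and 0.36.

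Irf7 correlated positively with all 33 other members in both groups. The median Pearson r was 0.68 in the LD group and 0.49 in the ADV group, against 0.00023 and 0.0024 over all 12029 other genes, and the median Spearman rho was 0.64 and 0.44. Without the 2 mice farthest from the Irf7 median (LD 31 and LD 29, and ADV 29 and ADV 27) the median r was 0.58 and 0.52. In the LD group 25 of 33 members had an unadjusted p under 0.05 by a two-sided permutation test (100000 permutations) with a positive r, against 3.65% of all genes, and in the ADV group 15 of 33, against 4.6%. After Benjamini-Hochberg adjustment over all genes, Ifitm3 in the LD group was the only member with an adjusted p under 0.05. It had an r of 0.90 (p = 1e-05, the smallest that these permutations can give, adjusted p = 0.0301) and a rho of 0.93 (p = 1e-05), and its r was 0.925 without the 2 farthest mice. In the ADV group no gene had an adjusted p under 0.05 for r, and 999 had an unadjusted p under 0.05. There Bst2 was the closest member, with an r of 0.76 (permutation p = 0.00068, adjusted p = 0.277) and a rho of 0.77 (p = 0.00066), and its r was 0.69 without the 2 farthest mice. Whether the correlations differed between the groups was not tested.

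**Figure D5:**
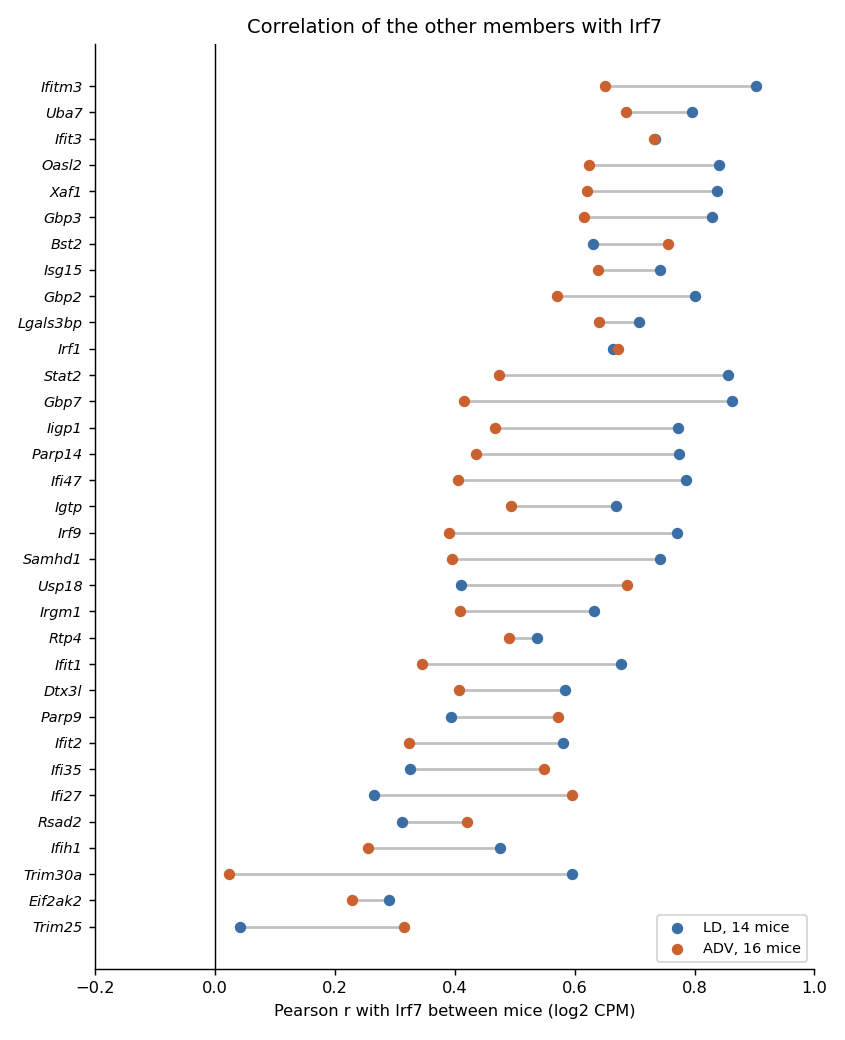
Pearson r of each of the other 33 members with Irf7 between mice (x axis, log2 CPM), in the 14 LD mice (blue) and the 16 ADV mice (orange), ordered by the mean of both. All points lie above 0, from 0.04 for Trim25 to 0.90 for Ifitm3 in the LD group and from 0.02 for Trim30a to 0.76 for Bst2 in the ADV group.

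Outside the list, the 5 genes with the highest r with Irf7 in the LD group were Psmb8 (0.91), B2m (0.89), H2-T23 (0.86), Ly6e (0.86) and H2-K1 (0.85). Psmb8 is a subunit of the immunoproteasome, and B2m, H2-T23 and H2-K1 are parts of MHC class I molecules. Psmb8, B2m and H2-T23 had adjusted permutation p values of 0.0301, 0.0301 and 0.0481. The fifth gene with an adjusted p under 0.05 in the LD group, besides these and Ifitm3, was Irgm2, with an r of 0.78 (permutation p = 1e-05, adjusted p = 0.0301). In the ADV group the 5 genes were Tmem9 (0.86), Dbnl (0.86), Rnf135 (0.86), Unc93b1 (0.86) and Ppp1r3e (0.84), with adjusted permutation p values from 0.120 to 0.194. Rnf135 encodes a ligase that acts on the RNA sensor RIG-I, and Unc93b1 carries Toll-like receptors to endosomes. All 14 leukocyte markers tested also had a positive r with Irf7 in both groups, from 0.48 to 0.82 with a median of 0.70 in the LD group and from 0.31 to 0.84 with a median of 0.64 in the ADV group. The highest were Ptprc, which encodes CD45, in the LD group and C1qb, a complement gene of macrophages, in the ADV group, and Ptprc was the lowest in the ADV group. None had an adjusted permutation p under 0.05, and the smallest were 0.160 and 0.120. The part of these cells in the correlation of the members was not tested.

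The interferons themselves gave almost no reads. Over 15 interferon genes and all 30 mice, 12 genes were at 0 in every mouse, and the others had 3 reads (Ifnab), 1 read (Ifnb1) and 5 reads (Ifng). LD 31 had 1 of the 5 reads of Ifng, and ADV 35 had 0 reads of every interferon gene. The receptors were present in every mouse. Ifnar1 had a median of 2.80 FPKM under LD and 2.98 FPKM under ADV, and Ifnar2 had 1.81 and 1.79 FPKM. Ifngr1 had 14.45 and 14.64 FPKM, and Ifngr2 had 12.4 and 13.7 FPKM. Of the 14 genes tested for the receptors and JAK-STAT signalling none had an edgeR FDR under 0.05. An unadjusted p under 0.05 was seen for 2 of them, against 3624 of all 12030 genes. The FDRs were 0.292 for Ifnar1, 0.887 for Ifnar2, 0.762 for Ifngr1 and 0.147 for Ifngr2.

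Further lists of the pathway had few called genes, against 10.8% of all genes. Of 42 other interferon-induced effectors tested 1 was called, Trim12c, with a log2 fold change of -0.27 (SE 0.09, FDR 0.0449 in edgeR), and 30 of the 42 were lower in the ADV group, with a median of -0.10. Of 16 genes of MHC class I and the immunoproteasome 1 was called, Erap1, which trims peptides for MHC class I, with -0.18 (SE 0.05, FDR 0.0132 in edgeR). Of 4 other interferon regulatory factors 1 was called, and it was higher. Irf3, the factor that sensors of nucleic acid activate, had a median of 6.92 FPKM under LD and 7.52 FPKM under ADV, with a log2 fold change of 0.17 (SE 0.05, FDR 0.0188 in edgeR). Of 9 nucleic acid sensors and adaptors none had an edgeR FDR under 0.05. An unadjusted p under 0.05 was seen for 3 of them, against 3624 of all 12030 genes.

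Some markers of other cells of the muscle were also called between the groups, against 10.8% of all genes. None of the 14 leukocyte markers tested had an edgeR FDR under 0.05. In the same test 4 had an unadjusted p under 0.05, against 3624 of all 12030 genes. Of the 14 markers 13 were lower in the ADV group, and the median log2 fold change of the 14 was -0.29. The summed level of the 32 leukocyte markers ranged from 144 to 576 FPKM under LD and from 141 to 290 FPKM under ADV. The medians were near each other, at 212.7 FPKM under LD and 201.7 FPKM under ADV. Cd74, Lyz2 and H2-Aa were each highest of all mice in LD 33, at 150.8, 97.68 and 84.79 FPKM. Of 5 plasma cell markers Igkc and Ighm fell, with log2 fold changes of -2.07 and -0.47 (edgeR FDR 0.0298 and 0.0372). Igkc had a median of 2.98 FPKM under LD (0 to 61.5) and 2.12 FPKM under ADV (0.469 to 8.82). Its fold change thus rests on the highest LD mice. Ighm had a median of 137.6 FPKM under LD (81.2 to 267.6) and 109.4 FPKM under ADV (66.3 to 158.1). Of 15 endothelial markers 12 were higher in the ADV group and 3 lower. Of these Pecam1, Emcn and Eng were called, as higher by 0.16, 0.27 and 0.38 (FDR 0.0323, 0.00945 and 0.00537). Of 12 fibroblast markers 9 were lower and 3 higher, and Pdgfra alone was called, with a fall of 0.24 on the log2 scale (FDR 0.0194). All 9 adipocyte markers were higher, and Cidea and Fabp4 were called, with rises of 0.77 and 0.36 (FDR 0.0481 and 0.0231). Cidea lost its call without LD 31 and ADV 35 (FDR 0.0695). None of the 14 genes of muscle fibers had an edgeR FDR under 0.05. An unadjusted p under 0.05 was seen for 3 of them, against the same 3624 of 12030 genes. The part of these cells in the lower values of Eif2ak2, Ifih1 and Trim30a was not tested.

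Of the mice left out 1 at a time, only ADV 35 changed the count of called members. Without both LD 31 and ADV 35, an alternative added after the values were seen, 5 of 34 members were called, all lower in the ADV group, against 4.7% of all genes. They were Eif2ak2, Ifih1 and Trim30a together with Samhd1 (log2 fold change -0.18, edgeR FDR 0.0481) and Dtx3l (-0.23, FDR 0.0364). Without ADV 35 alone 7 were called, all lower, against 5.35% of all genes, with Gbp7 and Iigp1 in addition. Leaving out LD 31 alone gave the same 3 members as all mice. ADV 35 was picked for its high values in the members, so leaving it out lowers the ADV values by choice. The FDRs without ADV 35, here and above, describe that choice and are no further test.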

How the data were processed

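After trimming with Trimmomatic, the authors aligned the 101-base paired reads by STAR (GRCm39), kept a mapping quality of at least 10 and counted exons of UCSC known canonical transcripts with Homer. The submitters' processing notes name STAR 2.7.10a and HOMER 4.11. The authors deposited the counts without normalization, and these are estimated counts because a mate weighs 0.5 read, so 14.8% were not whole. They were rounded. The authors also deposited FPKM values, which are the same counts per exon length and library size. Mice were grouped by their labels, all columns were used, and the labels do not name a batch.

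The longest row of a symbol with a mean over 20 reads was kept, and genes with a mean FPKM over 0.5 were tested with edgeR 4.0.16 in R 4.3.3 (TMM, quasi-likelihood F test, Benjamini-Hochberg adjustment). The edgeR p-values set the difference between the groups against the spread between mice. The permutation p-values are for correlations between mice within a group. Correlations used log2 CPM with a prior count of 2 (scipy 1.17.1, numpy 2.4.6). Exon overlaps were read from GENCODE vM39. The fit was tested on simulated data.

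All members may be named, with full values for Irf1, Irf7, Irf9, Stat2, Isg15, Ifit1, Ifit2, Ifit3, called members, the 3 most abundant and the 3 most variable of those tested. Genes of other lists are named where called, together with the receptors, and so are the 5 genes outside the list closest to Irf7 in each group. The remaining genes, those of single mice included, were chosen after their values were seen. A result on a further gene is not reported here. The members and lists were chosen with earlier results of these data known. Alternatives were DESeq2 1.42.0, limma 3.58.1 on log2(FPKM + 0.1) and log2(FPKM + 1), the two-sided Wilcoxon rank-sum test on FPKM (exact, or 100000 permutations where values tied), other size factors and filters, summed rows, a clock score covariate, removal of the GC content trend, the label number as a block, and each mouse left out in turn.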

Additional observations from a re-analysis of the deposited data

How the results depend on the processing

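Between 0 and 7 members were called under the alternatives. The count was 3 with all mice and 1 with a fold change over 1.3, with the GC content trend removed or with the label number as a block, 0 with the clock score, 5 without LD 31 and ADV 35 (this and the libraries sharing a number, without block, were added after seeing the data), and 3 to 7 with 1 mouse left out. It was 7 only without ADV 35. DESeq2 called 4, with Iigp1 in addition (FDR 0.0193), and 2 were called with no filter and with a mean over 100 reads. Over all genes the count was 1301, and 618 with no filter, 603 with the GC content trend removed, 0 with the clock score and 252 with the fold limit. Leaving out 1 mouse gave 835 (without LD 28) to 1542. The labels do not say whether a shared number pairs 2 mice, and the values do not settle it. Of 14 pairs with a shared number 6 had correlated deviations over 0.1 (-0.261 to 0.429), and 2 correlated best with their own number. With the number as a block over the 28 libraries that share one, 494 genes and 1 member were called, against 616 genes and 2 members in the same libraries without the block. Under the block Ifih1 and Trim30a had FDRs of 0.0834 and 0.11 in edgeR. The median log2 fold change of the members stayed negative under all alternatives, from -0.19 to -0.07 with 1 mouse left out. The median pair r was 0.43 to 0.53 in the LD group and 0.44 to 0.55 in the ADV group with 1 mouse left out, and the median r with Irf7 in the LD group was 0.58 without the 2 farthest mice.

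Of 430 values of single members under other settings 397 kept their sign and side of the threshold, 9 lost and 3 gained a call and 21 changed sign. Irf7 was at 0.0019 in limma on log2(FPKM + 0.1), 0.0911 with the clock score and 0.0129 without both mice. Irf9 was at 0.0178 and 0.0130 in limma on log2(FPKM + 0.1) and log2(FPKM + 1), 0.0131 with library size alone, 0.0256 with the block and 0.0274 in its libraries without it. Irgm1 was at -0.0282 and -0.0211 in limma, -0.0150 with the block and -0.0816 without both mice. Parp9 was at 0.0046 and 0.0051 in limma, 0.0098 with library size alone and 0.0160 with the GC content trend removed. Ifitm3 and Ifi35 were at -0.0052 and -0.0292 with that trend removed, and Bst2, Ifi35 and Lgals3bp at -0.0654, -0.0358 and 0.0235 with the clock score. With 1 mouse left out, 9 members changed sign: Irf7 (-0.11 to 0.0554), Irf9 (-0.06 to 0.0417), Igtp (-0.40 to 0.59), Irgm1 (-0.21 to 0.17), Iigp1 (-1.14 to 0.41), Ifitm3 (-0.0025 to 0.0816), Parp9 (-0.03 to 0.0228), Ifi35 (-0.0031 to 0.0542) and Lgals3bp (-0.10 to 0.0027). The causes were not tested.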
